A study of Mus musculus and Homo sapiens with 67 samples.

Results

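The comparison asked what tazemetostat added to RMC-6236 in cultured KPC cells. It set 3 libraries of cells given both drugs (the combination) against 3 libraries of cells given RMC-6236 alone, and covered the 12567 of 55335 listed genes that reached 1 FPKM (fragments scaled by gene length and library size) in 3 or more of the 12 KPC cell libraries. The other 6 libraries were from KPC cells given the solvent DMSO (control) or tazemetostat alone. KPC is the usual name for mouse pancreatic cancer cells from a genetically engineered model of pancreatic ductal cancer. The labels of the cell samples give only this name, with no clone, sex, passage, dose or time, and they do not say that the 3 libraries of an arm came from separate cultures. The p-values therefore measure the spread between these libraries, which may be technical. The series holds 67 samples, of which 52 had values here, and includes the same 4 arms in human PSN1 and SW1990 cells and in orthotopic KPC tumours. The tumour columns carry a numbered KPC line name, and whether the cultured cells are that line is not stated in the sources used here.

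Tazemetostat inhibits EZH2, the catalytic subunit of polycomb repressive complex 2 (PRC2), which methylates histone H3 and keeps developmental and lineage genes silent. RMC-6236 binds RAS proteins in their active, GTP-loaded state and blocks their signalling to RAF and the MAP kinases. RAS signalling drives proliferation in most pancreatic ductal cancers, and silencing by PRC2 is known to hold back differentiation genes in epithelial tumours.

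The 6 compared libraries were alike in scale. Their FPKM values summed to between 294597 and 299056, and 11837 to 11947 genes reached 1 FPKM. Mitochondrially encoded genes took 11.7% to 12.3% of FPKM with RMC-6236 and 11.2% to 11.7% with the combination. FPKM keep no read totals, so the depth is unknown. Correlations of log values ran from 0.9953 to 0.996 within an arm and from 0.98 to 0.9811 between the arms. As a check of identity, 8 of 10 ductal epithelial markers reached 1 FPKM in 3 or more of the 12 libraries, with Krt19 the most abundant. None of 10 T cell markers did so, although Trac reached up to 1.21 FPKM in the combination. The defining macrophage genes Adgre1, C1qa and Tyrobp and the endothelial genes Cdh5 and Kdr were listed at 0 in all 6 libraries. Other markers of these cells were present, with means under RMC-6236 and the combination of 64.9 and 79.7 FPKM for Cd14, 7.82 and 5.25 for Cd68, 2.05 and 2.16 for Mrc1 and 1.99 and 3.43 for Egfl7, and 5 of 14 fibroblast markers reached 1 FPKM. In bulk RNA, fewer cells of a state and less RNA per cell cannot be told apart.

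The genes that rose most when tazemetostat was added to RMC-6236 included Serpina3n, Ptger3, Lrg1, Osr2, Reg3b, Ldhb and Saa3, and the matricellular genes Thbs1, Ccn1 and Ccn2 fell. At an adjusted p below 0.05, 2551 of 12567 genes (20.3%) were higher in the combination and 3581 (28.5%) were lower. Most of these changes were small, with a median size of 0.25 log2 units among the called genes. At 2-fold or more the balance was the other way, with 145 genes higher (1.15%) and 24 lower (0.191%). All changes are differences of log2(FPKM + 1), a scale that understates the change of genes with low levels. The median change over all tested genes was -0.04.

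**Figure D1:**
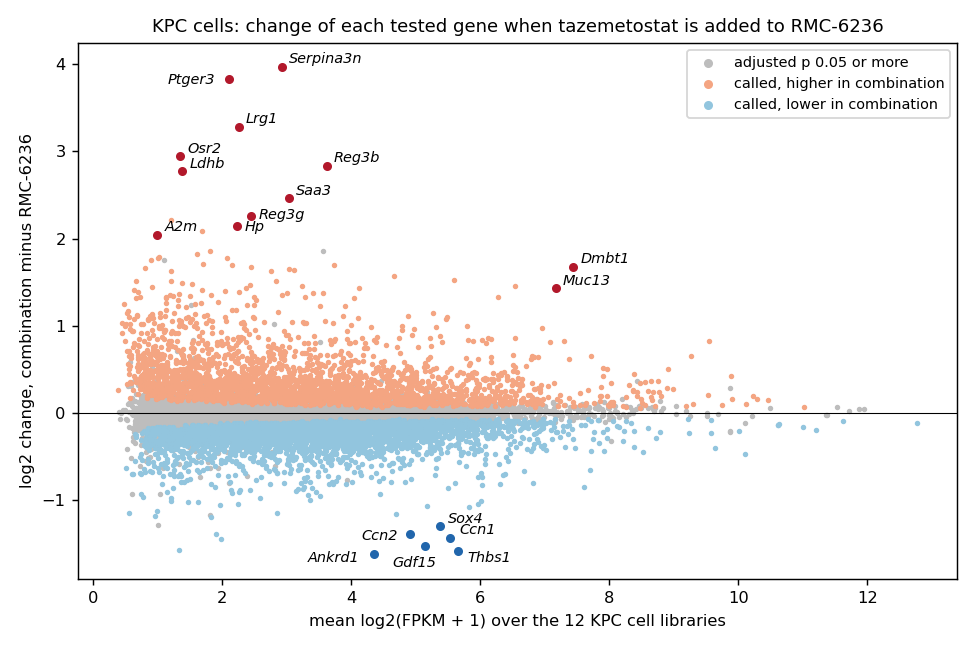
Each point is 1 of the 12567 tested genes in KPC cells, with its mean log2(FPKM + 1) over 12 libraries on the x axis and its log2 change, combination minus RMC-6236, on the y axis. Genes past the adjusted p of 0.05 are coloured by direction, and 145 rose and 24 fell by 2-fold or more.

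The 2-fold risers lay mostly among genes with low levels. The tested genes were split by mean log2(FPKM + 1) over the 12 libraries into 4 bins of equal size. In the lowest bin 79 rose and 9 fell by 2-fold or more. In the highest, where the lowest mean was 16.6 FPKM, 12 rose and 11 fell. Of the tested genes 516 were below 1 FPKM in every RMC-6236 library, and 69 of those reached 1 FPKM in combination libraries only, so that they entered the test through the arm in which they were high. Just outside the filter lay 219 genes that reached 1 FPKM in 2 of 12 libraries, and just inside it lay 271 that did so in 3.

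Promoter windows are shown here for 2 rising and 2 falling genes, as examples chosen because each window holds a match to a motif. They run from 250 bases before to 50 after the annotated start in RefSeq for GRCm38.p6, 5′ to 3′ on the gene's strand. Capitals mark matches to TTCNNNGAA, the spaced palindrome that STAT factors bind, in the rising genes Reg3b (chr6:78370635-78370934, plus strand) and Socs3 (chr11:117969317-117969616, minus strand). In the falling genes Ankrd1 (chr19:36119795-36120094, minus strand) and Ccn1 (chr3:145649936-145650235, minus strand) they mark GGAATG, the core that TEAD factors bind, or its reverse complement CATTCC.
Reg3b: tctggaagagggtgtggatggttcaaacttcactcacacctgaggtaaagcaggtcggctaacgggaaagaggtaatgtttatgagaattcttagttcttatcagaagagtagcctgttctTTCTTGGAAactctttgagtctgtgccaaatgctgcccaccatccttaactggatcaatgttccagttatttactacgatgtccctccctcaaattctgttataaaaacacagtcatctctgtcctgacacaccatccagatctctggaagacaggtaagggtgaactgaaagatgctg
Socs3: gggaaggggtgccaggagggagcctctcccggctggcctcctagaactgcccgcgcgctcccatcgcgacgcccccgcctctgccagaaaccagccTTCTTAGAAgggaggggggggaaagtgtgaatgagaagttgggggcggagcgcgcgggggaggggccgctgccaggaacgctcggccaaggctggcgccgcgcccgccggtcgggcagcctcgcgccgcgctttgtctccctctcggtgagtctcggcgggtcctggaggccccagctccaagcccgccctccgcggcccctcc
Ankrd1: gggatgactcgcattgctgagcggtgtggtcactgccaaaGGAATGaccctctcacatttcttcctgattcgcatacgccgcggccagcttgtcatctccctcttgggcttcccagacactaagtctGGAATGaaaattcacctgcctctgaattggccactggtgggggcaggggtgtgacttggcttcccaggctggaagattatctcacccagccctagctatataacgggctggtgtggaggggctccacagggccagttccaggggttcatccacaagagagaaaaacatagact
Ccn1: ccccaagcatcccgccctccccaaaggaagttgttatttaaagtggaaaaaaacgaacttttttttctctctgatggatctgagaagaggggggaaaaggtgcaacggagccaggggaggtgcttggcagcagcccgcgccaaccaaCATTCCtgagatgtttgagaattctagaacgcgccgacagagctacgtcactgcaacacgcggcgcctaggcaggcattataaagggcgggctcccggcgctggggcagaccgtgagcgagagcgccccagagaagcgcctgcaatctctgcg
Both strands were searched, and the 2 motifs did not overlap in these windows. Over 27025 RefSeq windows of this length, 1 per gene, TTCNNNGAA occurred in 8.42% and GGAATG in 14.7%. Over the 9090 windows of tested genes the shares were 6.6% and 11.7%. Among the other rising genes searched, Serpina3g held TTCNNNGAA, and Serpina3n, Lrg1, Saa3, Reg3g, Ldhb, Ache, Rtn4rl2, B4galnt2, Wfdc18 and Itln1 did not. GGAATG was also held by the falling genes Sox4, Acta2 and Cldn6 and by the rising gene B4galnt2, and was not found in the falling genes Gdf15, Fgd3, Ctxn1, Gxylt2 and Bglap. A window was found for 9090 of the 12567 tested genes and not for Ccn2, Thbs1, Osr2, Hp or A2m. With such gaps among the genes named here, a comparison of gene sets is void. A match describes the letters only.

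Ezh2 itself, whose protein tazemetostat inhibits, was slightly lower in the combination. It stood at 5.84, 6.48 and 6.59 FPKM with RMC-6236 and at 5.40, 5.46 and 4.87 with the combination (-0.23 ± 0.05 log2 units ± standard error, adjusted p = 0.00188), and the libraries of the 2 arms did not overlap. Over all tested genes, 33.7% had every combination library below every RMC-6236 library and 23.8% had every one above. RNA of an inhibited enzyme does not measure its activity. Of 13 PRC2 genes tested 3 rose and 4 fell, near the shares over all tested genes (20.3% higher and 28.5% lower). The same shares stand beside each list count of this comparison given below. Epop, an accessory subunit, rose from 0.566 to 1.81 FPKM (0.84 ± 0.10) and Ezh1, the other methyltransferase of the complex, from 7.88 to 10.5 (0.37 ± 0.05). The accessory subunit Mtf2 fell from 7.17 to 4.69 (-0.53 ± 0.07), and the core subunits Eed (5.86 and 5.81 FPKM) and Suz12 (15.2 and 14.3) did not pass the test, although Suz12 passed it as lower without combination library 2 (-0.14, adjusted p = 0.0249). Of 19 tested PRC1 genes, the second polycomb complex, 4 rose and 4 fell, also not far from those shares, with Bmi1 at 0.61.

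Acute phase proteins, which liver and inflamed epithelium secrete, included the largest single rise, that of Serpina3n. Serpina3n, a serine protease inhibitor, was at 1.33, 1.81 and 1.31 FPKM with RMC-6236 and at 38.6, 38.8 and 35.9 with the combination (3.97 ± 0.10, adjusted p = 7.13e-11). Lrg1, a leucine-rich secreted glycoprotein, was at 0.906, 0.517 and 0.519 against 14.7, 14.4 and 15.7 (3.28 ± 0.09). Saa3, a serum amyloid A protein, was at 6.66, 5.83 and 6.16 against 39.6, 39.1 and 37.5 (2.46 ± 0.07). In all 3 genes every combination library lay far above every RMC-6236 library. The haptoglobin gene Hp rose from 3.11 to 17.0 FPKM (2.15 ± 0.16) and A2m, the broad protease inhibitor alpha-2-macroglobulin, from 0.0358 to 3.27 (2.04 ± 0.06). Lcn2, the iron-scavenging lipocalin, was the most abundant of them and rose from 124 to 246 FPKM (0.98 ± 0.04). The list holds 28 genes and was made after values had been seen. Of its 11 tested members 10 rose and none fell, with a median of 2.04, and Orm3 (1.98 and 1.62 FPKM) did not pass the test. A2m, which gives that median, Serpina3m and Serpina3g were below 1 FPKM in every control and RMC-6236 library. They entered the test through the arms given tazemetostat, in which they were high, so their rises are not independent of the filter. Serpina3n, Serpina3m (2.21) and Serpina3g (1.79) are near copies of each other, as are Reg3b and Reg3g, so reads may have been split among them in ways these values cannot show.

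Genes of the JAK and STAT pathway, through which interleukin 6 family cytokines induce acute phase genes, changed less. Socs3, the feedback inhibitor of this pathway, was at 37.3, 39.1 and 38.4 FPKM with RMC-6236 and at 76.0, 77.6 and 79.4 with the combination (means 38.3 and 77.7, adjusted p = 2.49e-10). The cytokine receptor chains Il4ra (0.79), Il13ra1 (0.77) and Osmr (0.58, 5.35 to 8.51 FPKM) rose, and Stat3 rose from 32.5 to 38.3 (0.23 ± 0.03). The ligand Lif fell by 0.34, and Il6st, the shared receptor chain, did not pass the test (0.09). In all 14 of 28 tested members of this list rose and 5 fell, with a median of 0.12. It too was made after values had been seen. Of 9 tested complement genes, a list of the same kind, 5 rose and 2 fell. The central component C3 was at 62.6, 61.5 and 64.5 against 133, 136 and 131 FPKM (1.07 ± 0.03), and Serping1, the C1 inhibitor, rose from 0.429 to 1.74 (0.94 ± 0.08). Summed FPKM of 14 macrophage markers ran from 73.6 to 77 with RMC-6236 and from 84.4 to 90.3 with the combination, with Cd14 the largest term and 6 of the markers at 0. The part of such cells in these changes was not tested.

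Mucins and defence proteins of the gut and stomach lining rose as well. Reg3b, an antibacterial lectin of the intestine, was at 3.83, 4.13 and 4.17 FPKM with RMC-6236 and at 35.7, 34.6 and 34.7 with the combination (2.84 ± 0.06, adjusted p = 2.59e-12). The related lectin Reg3g was at 2.02, 1.45 and 1.70 against 12.3, 12.1 and 11.6 (2.26 ± 0.07). Gucy2c, the intestinal guanylate cyclase receptor, was at 1.49, 1.60 and 1.63 against 8.29, 8.38 and 7.62 (1.82 ± 0.06). The groups did not overlap for any of them. Among genes with high levels, Dmbt1, a secreted mucosal defence protein, rose from 104 to 334 FPKM (1.67 ± 0.02), and Muc13, a transmembrane mucin, was at 137, 136 and 139 against 365, 384 and 365 (1.43 ± 0.02). Of 22 tested members of this list, which was made after values had been seen, 18 rose and none fell (median 1.36). Agr2, which helps mucins fold, was level at a change of 0.00.

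Genes of the classical subtype of pancreatic cancer, which keeps gastric and endodermal features, showed 17 of 22 tested members higher and 1 lower (3 lower without combination library 3), with a median of 0.37. Muc5ac, the gel-forming gastric mucin, was at 0.537, 0.479 and 0.558 FPKM against 2.87, 3.58 and 3.30 (1.48 ± 0.06), and the gastrokine Gkn3 rose from 0.321 to 2.46 (1.39 ± 0.12). The endodermal factor Gata6 rose by 0.35 and Hnf4a by 0.52. This list shares Muc13, Muc5ac and other members with the mucin list. Of the 8 tested basal-like genes 3 rose and 4 fell.

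**Figure D2:**
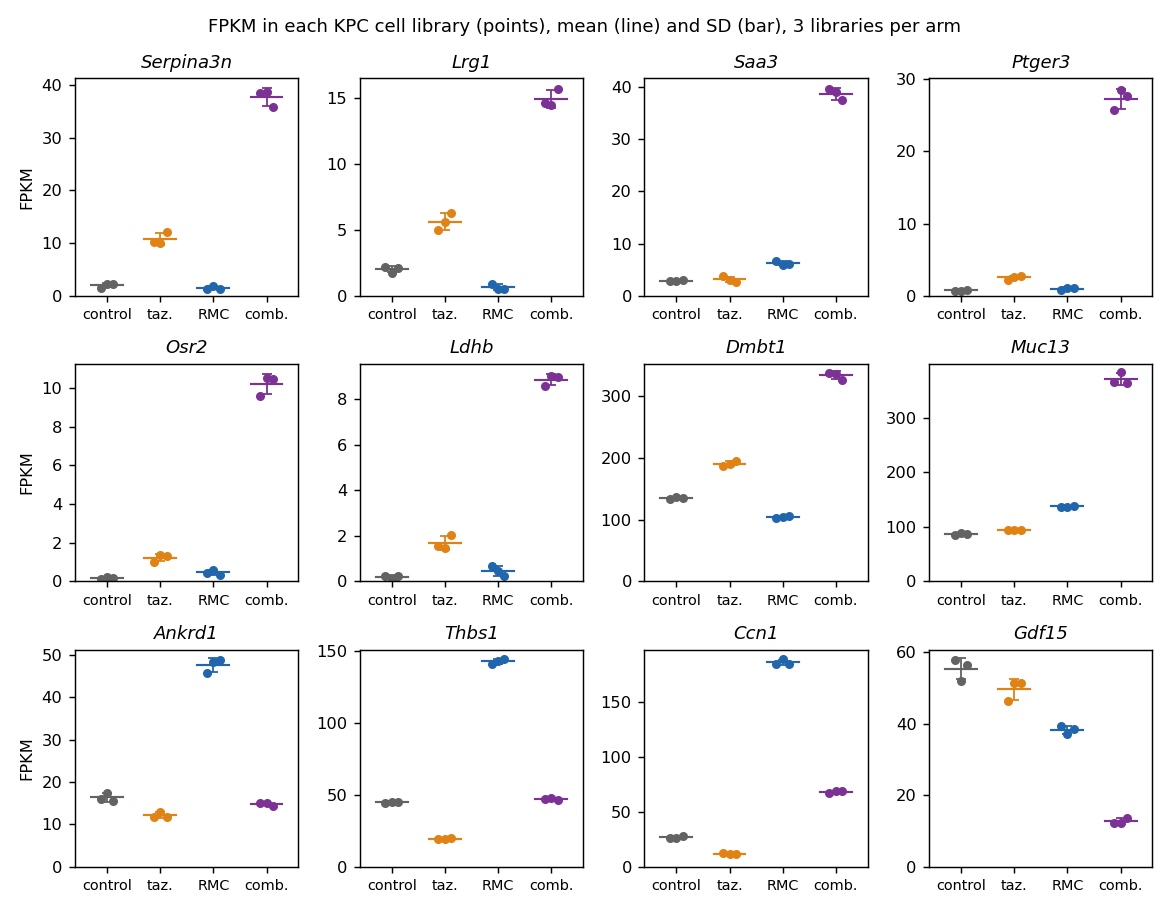
FPKM of 12 genes (linear y axes) in each of the 12 KPC cell libraries, by arm on the x axis, with taz. for tazemetostat, RMC for RMC-6236 and comb. for the combination. Points are libraries, lines are means and bars are SD of 3 libraries. Serpina3n, Lrg1, Ptger3, Osr2 and Ldhb are highest in the combination, and Ankrd1, Thbs1 and Ccn1 are highest with RMC-6236 alone.

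Other genes rose from near 0. Osr2, a zinc finger transcription factor of kidney, limb and palate development, was at 0.452, 0.566 and 0.345 FPKM with RMC-6236 and at 9.60, 10.5 and 10.4 with the combination (2.95 ± 0.08, adjusted p = 5.99e-11). Ldhb, the lactate dehydrogenase B chain, was at 0.689, 0.462 and 0.228 against 8.61, 9.02 and 8.99 (2.77 ± 0.11). Ptger3, a prostaglandin E2 receptor that was singled out after its values were seen, was at 0.798, 1.12 and 1.05 against 25.7, 28.4 and 27.7 (3.83 ± 0.07). None of these 3 belongs to the lists above, and none overlapped between the arms. Wfdc18 (1.77), a secreted whey acidic protein family member, and the lectin Itln1 (1.76) also rose from below 1 FPKM. Wfdc18 reached 1 FPKM in combination libraries only, so it entered the test through the arm in which it was high. Osr2, Ldhb and Itln1 were below 1 FPKM in every control and RMC-6236 library. They entered the test through the arms given tazemetostat, so their rises are not independent of the filter either. Among genes already above 1 FPKM, acetylcholinesterase Ache rose by 2.09, the Nogo receptor family member Rtn4rl2 by 1.78, the homeobox repressor Zhx1 by 1.71 and the glycosyltransferase B4galnt2 by 1.70.

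Developmental transcription factors, the textbook targets of PRC2, were mostly below the filter. Of 39 genes of the HOX clusters, which set position along the body axis, 15 were tested, and of these 10 rose and 1 fell (median 0.42). Hoxc6 rose from 0.0159 to 1.25 FPKM (1.14 ± 0.09), Hoxa13 from 4.92 to 9.65 (0.85 ± 0.08) and Hoxb3 from 2.48 to 4.95 (0.78 ± 0.07), and Hoxa3 fell by 0.20. Of 118 other developmental factors 26 were tested, with 16 higher, 5 lower and a median of 0.27. Pax3, a factor of neural crest and muscle, was at 0.423, 0.693 and 0.389 against 2.74, 2.81 and 2.63 FPKM (1.32 ± 0.09). Tbx15, a T-box factor of limb and trunk, rose from 0.0333 to 1.09 (1.02 ± 0.08). These counts describe only the members that reached the filter. Imprinted genes showed 3 of 10 tested members higher and 2 lower. The CDK inhibitor Cdkn1c, an imprinted gene, rose from 0.434 to 1.56 FPKM (0.83 ± 0.11). Of 30 germline genes only Brdt was tested, and it rose by 0.34.

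Targets of YAP and TEAD, the transcription factors at the end of the Hippo pathway, led the falling genes. Ankrd1, a nuclear ankyrin repeat protein, was at 45.7, 48.4 and 48.8 FPKM with RMC-6236 and at 14.9, 15.0 and 14.4 with the combination (-1.62 ± 0.05, adjusted p = 9.35e-11). Thbs1, the matricellular protein thrombospondin 1, was at 141, 144 and 145 against 46.9, 47.7 and 46.3 (-1.59 ± 0.02). Ccn1, a matricellular ligand of integrins, was at 185, 189 and 184 against 66.9, 68.9 and 68.7 (-1.44 ± 0.04). Every combination library lay below every RMC-6236 library for each gene. Its relative Ccn2 was at 39.3, 37.9 and 38.7 against 13.6, 13.8 and 15.0 (-1.39 ± 0.04). Of 24 tested targets 15 fell and 4 rose (median -0.30), and Ccn3 was the member that rose most (0.69). Against the control arm the levels differed between these genes. RMC-6236 had raised Ankrd1 from 16.4 to 47.6, Thbs1 from 45.0 to 143 and Ccn1 from 26.7 to 186 FPKM, and the combination means were 14.8, 47.0 and 68.2. Ccn2 was at 40.7 in control and 38.6 with RMC-6236, where it did not pass the test, and at 14.1 with the combination.

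Genes of the contractile cytoskeleton and the mesenchymal state fell in the same direction. Of 27 tested actin cytoskeleton genes and targets of SRF, the factor that answers to free actin, 21 fell and none rose (median -0.45). The list was made after values had been seen. Fscn1, which bundles actin in protrusions, fell from 96.7 to 45.4 FPKM (-1.07 ± 0.05), the calponin Cnn2 from 72.2 to 34.0 (-1.06 ± 0.03) and the tropomyosin Tpm1 from 68.1 to 38.5 (-0.81 ± 0.03). Acta2, smooth muscle actin, was at 1.74, 2.21 and 2.07 against 0.481, 0.405 and 0.193 (-1.15 ± 0.09), and it is counted in both lists. Acta2 reached 1 FPKM in RMC-6236 libraries only, so it entered the test through the arm in which it was high. Of 29 tested mesenchymal genes 19 fell and 3 rose (median -0.39). Fn1, fibronectin, was at 113, 114 and 115 against 62.9, 67.3 and 63.2 (-0.81 ± 0.03), and Timp3, an inhibitor of metalloproteinases, fell from 30.8 to 17.3 (-0.80 ± 0.04). Twist1, a transcription factor of the mesenchymal state, went the other way, at 4.81, 3.90 and 3.63 against 9.52, 8.74 and 10.3 (1.04 ± 0.08). Vim (270 and 281 FPKM) and Zeb1 (4.05 and 3.68) did not pass the test. Summed FPKM of 14 fibroblast markers ran from 68.1 to 69.3 with RMC-6236 and from 53.8 to 56.7 with the combination, with 5 markers at 1 FPKM, Col3a1 the largest term and Thy1 at 0. The part of other cells in this fall was not tested.

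Epithelial genes were higher in 15 of 24 tested members and lower in 4 (median 0.19). Spint1, a membrane protease inhibitor, ran from 3.22 to 3.75 FPKM with RMC-6236 and from 9.36 to 11.4 with the combination (1.33 ± 0.08). The epithelial factor Elf3 was at 40.8, 39.5 and 43.7 against 75.5, 76.2 and 78.5 (0.88 ± 0.04), and the adhesion protein Epcam rose by 0.67 ± 0.05. Cldn6, a tight junction claudin of embryonic epithelium, was at 2.75, 3.34 and 2.79 against 0.887, 0.891 and 0.955 (-1.05 ± 0.06). Cdh1, the epithelial cadherin, was nearly level (31.0 and 29.0 FPKM, -0.09 ± 0.03, adjusted p = 0.0342), and its call was lost in 7 of the alternatives, among them median ratio scaling (adjusted p = 0.0838) and leaving out RMC-6236 library 1 or 2 or combination library 1 or 3 (0.0543 to 0.124).

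Secreted growth and differentiation factors divided. Gdf15, a stress-induced member of the TGF-beta superfamily, was at 39.3, 37.0 and 38.6 FPKM against 12.2, 12.2 and 13.7 (-1.52 ± 0.05, adjusted p = 3.59e-10). Over the TGF-beta, BMP and ID list 14 of 34 tested members rose and 13 fell (median -0.02), with the matrix protein Ltbp2 at 1.09, Bmp2 at 0.89 and the BMP antagonist Chrd at 0.86. Of 27 tested WNT pathway genes 12 rose and 4 fell. The R-spondin receptor Lgr4 rose from 12.7 to 31.0 (1.22 ± 0.05) and the secreted WNT inhibitor Notum from 0.898 to 3.07 (1.10 ± 0.08). Leaving out a library in turn lowered the WNT falls to 2 in 3 of 6 cases, without RMC-6236 library 1 or combination library 1 or 2. Of 28 tested receptor tyrosine kinase genes and ligands 12 rose and 7 fell. The ligand Hgf, which activates MET, rose from 0.415 to 2.39 (1.26 ± 0.07) and Pros1, a ligand of the TAM receptors, from 8.06 to 20.2 (1.23 ± 0.04), and Fgf7 fell from 4.57 to 1.75 (-1.02 ± 0.08). Sox4, a transcription factor that TGF-beta induces, was at 91.3, 88.8 and 93.5 against 34.7, 36.5 and 38.1 (-1.30 ± 0.04), with no overlap.

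Readouts of the RAS pathway, the target of RMC-6236, changed by small amounts between the arms. Dusp6, the ERK phosphatase that ERK itself induces, was at 14.8, 15.2 and 14.1 FPKM with RMC-6236 and at 14.4, 15.0 and 14.6 with the combination, against 106 in control (-0.01 ± 0.04 between the arms, adjusted p = 0.927). Of 23 tested output genes 11 fell and 2 rose (median -0.08). The phosphatase Dusp4 fell from 44.0 to 29.4 (-0.57 ± 0.04) and the feedback inhibitor Spry1 from 11.8 to 8.02 (-0.51 ± 0.04). The EGF receptor ligand Areg rose from 0.472 to 1.47 (0.76 ± 0.10), against 21.4 in control, and Myc fell from 34.2 to 28.3 (-0.27 ± 0.04).

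Proliferation genes fell further by small amounts. Of 42 tested genes of the S to M phases 37 were lower in the combination and none higher (median -0.28), where RMC-6236 alone against control had lowered all 42 (median -1.62), with 35.8% of all tested genes lower there. Top2a, the topoisomerase of dividing cells, fell from 16.3 to 11.5 FPKM (-0.47 ± 0.03) and the helicase subunit Mcm2 from 10.8 to 7.61 (-0.46 ± 0.03). Mki67 did not pass the test, at 5.16, 5.65 and 5.66 against 4.98, 5.71 and 5.14 (-0.05 ± 0.05), and its libraries overlapped. Ribosome biogenesis genes fell in 22 of 26 tested members and rose in none (median -0.23), with Nop58 at -0.30. Tazemetostat alone against control lowered all 26 (median -0.32), with 25.5% of all tested genes lower there. Cdkn1a, the p21 inhibitor of cyclin-dependent kinases, was at 5.20, 5.50 and 5.09 against 11.3, 12.1 and 11.8 FPKM (1.03 ± 0.04). Over the 8 CDK inhibitors 3 rose and 2 fell. Of 13 tested BCL2 family genes 5 rose and 5 fell, among them the BH3-only gene Pmaip1 at 0.57 and Bcl2l1, which guards against apoptosis, at -0.32. Without RMC-6236 library 3 or combination library 2 the count of rising BCL2 family genes was 3.

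Metabolic lists moved up by small amounts. Glycolysis genes rose in 17 of 20 tested members and fell in none (median 0.28). The lactate exporter Slc16a3 rose from 60.6 to 94.8 FPKM (0.64 ± 0.03), Pfkfb3, which sets the level of the phosphofructokinase activator, by 0.57, and Ldha from 350 to 453 (0.37 ± 0.02). Cholesterol and fatty acid synthesis genes rose in 23 of 30 and fell in 1 (median 0.19), with the sterol enzyme Hsd17b7 at 0.48 and the sterol sensor partner Insig1 at 0.39. The count of falls was 0 without combination library 1 or 2 or any 1 of the RMC-6236 libraries. Of 30 tested autophagy and lysosome genes 12 rose and 5 fell, with the protease Ctsf at 1.06.

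Antigen presentation and immune signals gave a mixed picture. Of 18 tested genes of MHC class I and peptide loading 11 rose and 3 fell (median 0.24). The heavy chain H2-K1 ran from 22.4 to 23.4 FPKM against 50.2 to 51.0 (1.11 ± 0.03, adjusted p = 7.20e-11), and H2-D1 at 45.3, 47.2 and 49.7 against 85.3, 84.7 and 83.5 (0.82 ± 0.03). Both are class I heavy chains of similar sequence, so that reads could be shared. The light chain B2m did not pass the test (232 and 236 FPKM), and the peptide transporter Tap1 rose from 1.44 to 2.87 (0.66 ± 0.07). None of the 11 MHC class II genes reached the filter. Interferon-stimulated genes rose in 8 and fell in 8 of 36, where 20.3% of all tested genes rose and 28.5% fell. They ran from Gbp2 at 0.70 to Isg15 at -0.67, and without combination library 1 4 fell, and with no filter 5. Chemokines and cytokines rose in 12 and fell in 8 of 23, with Ccl20, an attractant of CCR6-bearing lymphocytes, at 0.81 and Ccl2, an attractant of monocytes, at -0.76. Without RMC-6236 library 2 or 3 the count of rising members was 7.

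**Figure D3:**
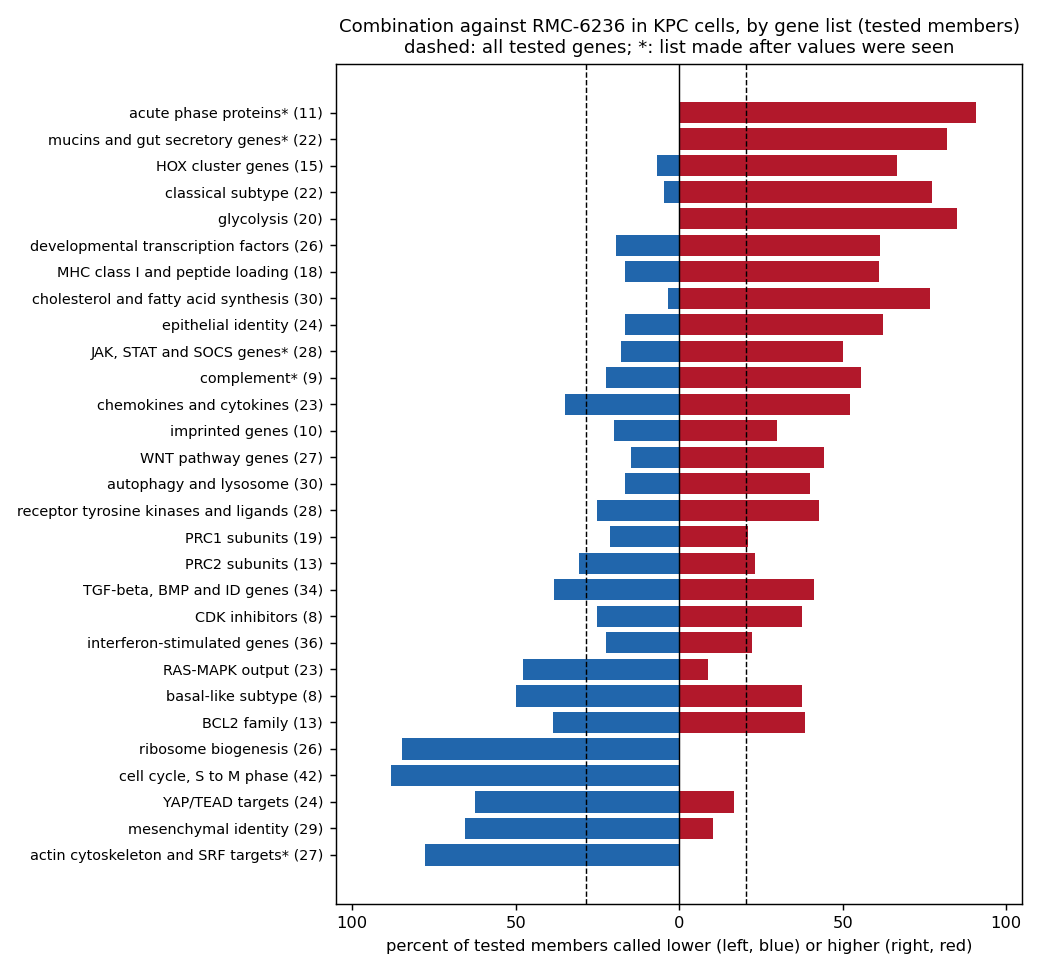
Bars give the percent of tested members of each gene list called higher (right) or lower (left) in the combination against RMC-6236, with the number tested in brackets. Dashed lines mark the percent over all 12567 tested genes, 20.3% higher and 28.5% lower. Acute phase proteins rose in 10 of 11 members, and S to M phase genes fell in 37 of 42.

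The effect of tazemetostat on cells without RMC-6236 can be set beside these changes, since that comparison uses the other 6 libraries. Tazemetostat against control called 2335 genes above control (18.6%) and 3202 below it (25.5%), and 96 (0.764%) and 8 (0.0637%) of them changed by at least 2-fold. Of the genes higher in the combination against RMC-6236, 1304 were also higher with tazemetostat alone, which is 51.1% of the first list and 55.8% of the second. Of the genes lower in the combination 1773 were also lower with tazemetostat alone (49.5% and 55.4%). Over the 12567 genes the changes had a Spearman's rho of 0.48, given as a description, since genes are not independent and all libraries come from 1 line. Of the 145 genes higher by 2-fold or more 118 also rose with tazemetostat alone and 5 fell. Their median change was 1.24 with RMC-6236 present and 0.64 without it, but the first value was used to choose them.

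A test of the difference between the tazemetostat effects with and without RMC-6236 (the interaction) called 1521 genes above 0 (12.1%) and 1721 below 0 (13.7%). It shares its RMC-6236 and combination libraries with the main comparison, so genes chosen for a large change there are not an independent sample. Saa3 differed most by this measure among the acute phase genes. It was at 2.88 FPKM in control and 3.11 with tazemetostat, where it did not pass the test (adjusted p = 0.44), and the effect of tazemetostat was larger by 2.39 log2 units with RMC-6236 present. For Muc13 the tazemetostat changes were 0.12 alone and 1.43 with RMC-6236, and for Gdf15, which fell, the interaction was -1.37. The coagulation gene F3, tissue factor, was picked after its values were seen. It rose with tazemetostat alone from 78.0 to 133 FPKM (0.76) and fell with it in the presence of RMC-6236 from 53.4 to 25.3 (-1.05), an interaction of -1.81 (adjusted p = 8.65e-10). Cldn6 also had opposite signs, 0.32 alone and -1.05 with RMC-6236. H2-D1 changed by 0.82 in both settings (interaction 0.00, adjusted p = 0.97), and the developmental factor Tbx15 by 0.95 and 1.02. Over the lists drawn up by function, the interaction was above 0 for 19 of 30 sterol and fatty acid genes and 12 of 20 glycolysis genes. It was also above 0 for 8 of 26 ribosome biogenesis genes, a list with median changes of -0.32 alone and -0.23 with RMC-6236. It was below 0 for 20 of 42 cell cycle genes, 19 of 29 mesenchymal genes, 13 of 24 YAP and TEAD targets and 15 of 23 RAS-MAPK output genes.

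**Figure D4:**
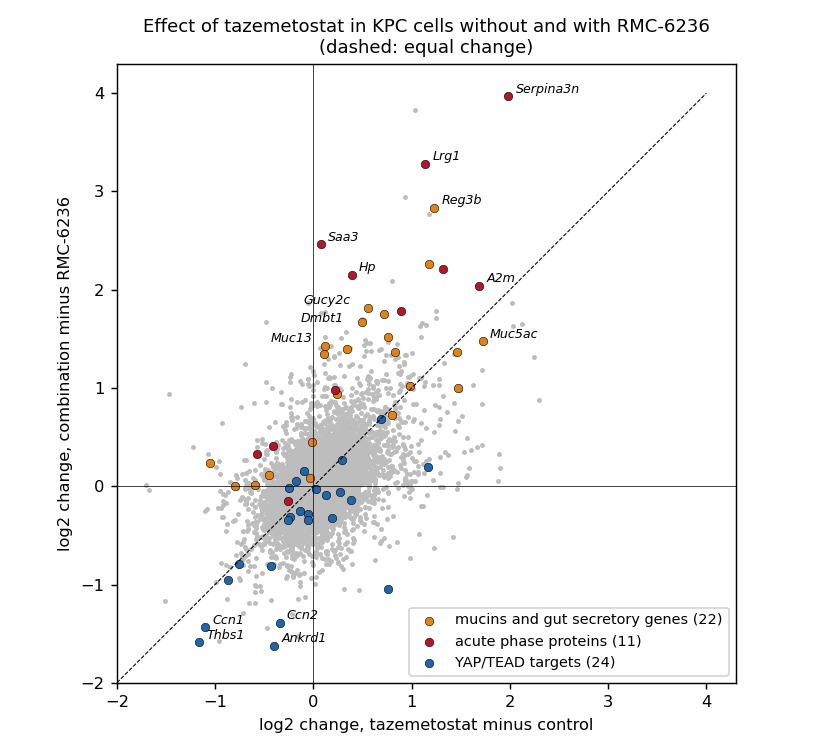
Log2 change of each tested gene with tazemetostat against control (x axis) and with the combination against RMC-6236 (y axis) in KPC cells, 3 libraries per arm. The dashed line marks equal changes, and coloured points are members of 3 gene lists. Serpina3n lies at 1.99 and 3.97 and Saa3 at 0.07 and 2.46, and Thbs1 at -1.16 and -1.59.

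The same contrast was fitted separately in the other 3 tables, which were normalized apart, so values are given side by side and no test was made between them. In KPC tumours grown in the pancreas, with 4 tumours in each arm, 699 of 13545 genes were higher in the combination (5.16%) and 402 lower (2.97%). Of 12068 genes tested in both cells and tumours, 129 were higher in both. That is 5.38% of the 2400 shared genes higher in cells and 52.2% of the 247 shared genes higher in tumours. The 247 leave out those of the 699 that were not tested in cells. Of the shared genes 2.05% were higher in tumours. Lower in both were 137, or 3.89% of those lower in cells, where 3.31% of the shared genes were lower in tumours. Opposite calls were 73 higher in cells and lower in tumours, and 36 the reverse. Spearman's rho of the changes was 0.01. Serpina3n ran from 7.44 to 12.7 FPKM in RMC-6236 tumours and from 52.7 to 115 in combination tumours (2.51 ± 0.47, adjusted p = 0.00488). C3 ran from 23.1 to 62.3 against 124 to 201 (1.89 ± 0.40), and Lcn2 from 0.892 to 8.38 against 19.2 to 58.4 (2.57 ± 0.47). None of these 3 overlapped between the arms, but the share of all tumour genes with separate arms was not computed. Of 8 tested acute phase members 5 were higher (median 1.92). Of 28 mucin and gut secretory genes 5 were higher and 0 lower (median -0.04). Of 25 classical subtype genes 0 were higher and 2 lower (median -0.27), and of 29 epithelial genes 0 were called. Lrg1 reached 9.8 in RMC-6236 tumours and started at 9.34 in combination tumours, and A2m reached 1.54 and started at 0.895, so the arms of both overlapped. Hp did not pass the test (adjusted p = 0.0995) and overlapped too, reaching 30.5 and starting at 12.1. Osr2 rose there too, from 1.84 to 5.30 (1.14 ± 0.19). Ankrd1 (16.7 and 15.5 FPKM), Thbs1 (100.2 and 99.4) and Ccn1 (77.4 and 85.7) did not pass the test in tumours. In the same tumours 6 of 7 tested acinar markers (median 3.98), 10 of 10 endothelial and 7 of 14 fibroblast markers were higher in the combination, and the part of these cells in the values was not tested.

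In PSN1 cells 24.1% of tested genes were higher and 30.1% lower in this contrast, and in SW1990 cells 29.8% and 18.3%. These balances depended on the processing. With median ratio scaling SW1990 cells had 3393 genes higher and 3379 lower, against 3846 and 2358 in the fit given here, and with no filter on low values PSN1 cells had 4776 higher and 4088 lower, against 3213 and 4025. In the human lines the acute phase list rose in 12 of 13 tested members in PSN1 cells (median 1.80) and in 4 of 4 in SW1990 cells (0.51). Mucin and gut secretory genes rose in 4 and fell in 5 of 10 in PSN1 cells, and rose in 9 of 9 in SW1990 cells. Classical subtype genes rose in 8 and fell in 8 of 17 in PSN1 cells, and rose in 9 and fell in 2 of 12 in SW1990 cells. A2M rose from 0.0632 to 11.4 FPKM in PSN1 cells (3.54 ± 0.04) and LCN2 from 6.33 to 24.5 (1.80 ± 0.07). In SW1990 cells LCN2 rose from 95.4 to 151.8 (0.66 ± 0.03), and C3 did not pass the test (51.0 and 53.6). THBS1 fell in both, from 16.1 to 7.95 in PSN1 cells (-0.93 ± 0.03) and from 38.9 to 16.9 in SW1990 cells (-1.15 ± 0.07). ANKRD1 fell in PSN1 cells (-0.70 ± 0.06) and rose in SW1990 cells (0.29 ± 0.08). F3 fell in PSN1 cells (-1.99 ± 0.02) and SW1990 cells (-1.25 ± 0.07), as in KPC cells. OSR2 fell in PSN1 cells (-0.58 ± 0.11) and rose in SW1990 cells (0.74 ± 0.07). Of 42 tested S to M phase genes 40 fell in PSN1 cells and 28 in SW1990 cells. Sterol and fatty acid genes rose in 22 of 27 in PSN1 cells and fell in 25 of 27 in SW1990 cells. Shared genes here are those matched by symbol and tested in both lines, so these lists are shorter than the full ones. With PSN1 cells 715 shared genes were higher in both. That is 39.2% of 1826 higher in KPC cells and 33.8% of 2115 higher in PSN1 cells, where 23.1% of all shared genes were higher in PSN1 cells. For SW1990 cells the count was 812 (45.2% of 1798 and 32.2% of 2522), where 28% of shared genes were higher. Lower in both KPC and PSN1 cells were 1337 genes (46.3% of the shared genes lower in KPC cells), where 34.5% of shared genes were lower in PSN1 cells. For SW1990 cells these values were 811, 28.4% and 19.6%. Opposite calls with PSN1 cells were 479 higher and 465 lower in KPC cells, and with SW1990 cells 299 and 548.

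**Figure D5:**
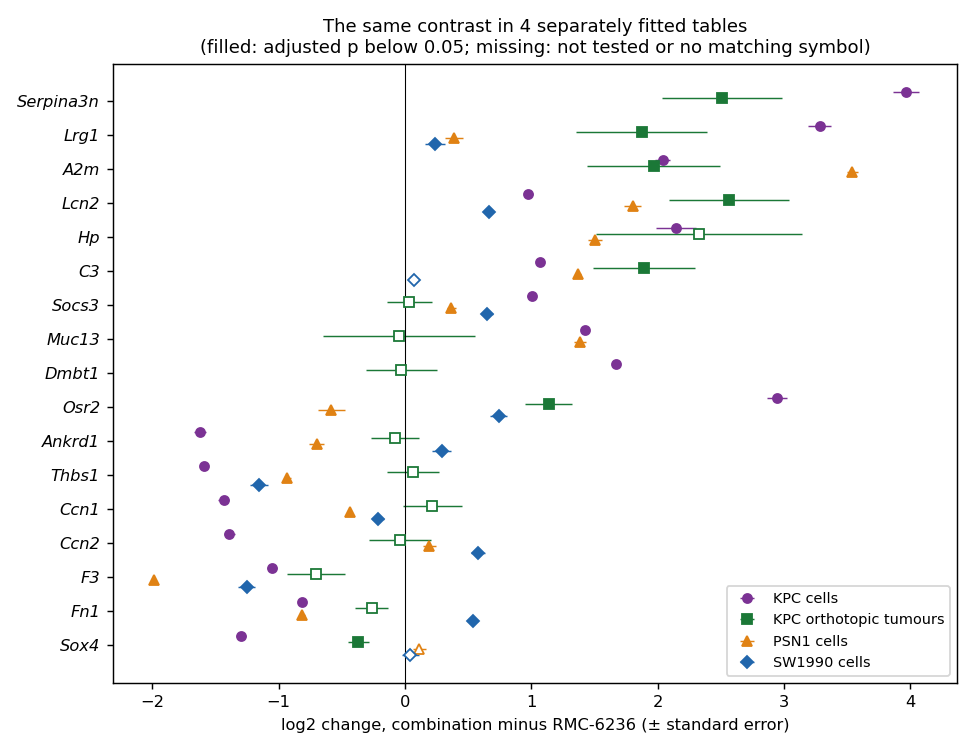
Log2 change, combination minus RMC-6236, with its standard error (x axis) for 17 genes (y axis) in KPC cells, KPC orthotopic tumours, PSN1 cells and SW1990 cells, each fitted apart. Filled points passed an adjusted p of 0.05. Serpina3n is at 3.97 in KPC cells and 2.51 in tumours, and Thbs1 is below 0 in the 3 cell lines and at 0.07 in tumours.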

How the data were processed

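RNA-seq values of 52 samples were used, and the other 15 samples of the series are not analysed here. The deposited values are FPKM per gene. Per the labels' protocols, RNA was isolated with RNAiso Plus and libraries were made with a stranded mRNA kit, and per the submitters' processing notes FastQC 0.11.2, STAR 2.5.3a and StringTie 1.3.1c were used. The notes list a human build for every sample, the mouse build is not given in the sources used here, and nothing states that strand was used in counting, so overlapping and antisense genes cannot be separated.

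Arms were taken from the sample labels. Values were taken as log2(FPKM + 1), genes were kept at 1 FPKM in 3 libraries (4 in tumours), and a model with a mean for each arm was fitted over all 12 KPC cell libraries with limma 3.58.1 (R 4.3.3), using trended, robust variances and Benjamini-Hochberg adjustment over all tested genes. Standard errors are those of the fit. The fit was tested on simulated data. Named genes were Ezh2, the 10 largest rises and falls of called genes with separate arms, a higher-arm mean of 5 FPKM or more and every library of the lower arm at 1 FPKM or more, the 8 largest rises and 4 largest falls with a higher-arm mean of 1 FPKM or more and every library of the lower arm below 1 FPKM, and up to 4 members per gene list, with members named for their role. Ptger3, F3, Dmbt1, Lcn2, Osmr and Stat3 and further list members given as examples were chosen after their values were seen. The comparison and gene lists were chosen with earlier results of these data known, and 5 lists (acute phase, JAK and STAT, complement, mucins, actin) after values were seen. Human symbols were matched to mouse symbols by upper-casing. Alternatives were a pseudocount of 0.1, no filter, median ratio scaling, a replicate block, plain variances, a filter or fit on the compared arms only, and leaving out each library. Figures were drawn with matplotlib 3.10.9.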

Additional observations from a re-analysis of the deposited data

Results flagged for a closer look

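The effect of tazemetostat differed with and without RMC-6236 (interaction, limma, adjusted p below 0.05) for 31 of the 33 genes named by rule, the exceptions being Ezh2 and Bglap. These genes were named for a large change in the combination against RMC-6236, which shares its libraries with the interaction, so their number is no independent evidence. Over all tested genes the interaction was called above 0 for 12.1% and below 0 for 13.7%. In log2 units the rise was larger with RMC-6236 present by 2.39 for Saa3, 2.14 for Lrg1, 2.01 for Osr2, 1.98 for Serpina3n, 1.76 for Hp, 1.66 for Wfdc18, 1.6 for both Reg3b and Ldhb, 1.29 for Ache, 1.26 for Gucy2c and 1.21 for B4galnt2. It was larger by 1.08 for Reg3g, 1.04 for Itln1, 0.9 for Serpina3g, 0.89 for Serpina3m, 0.53 for Rtn4rl2, 0.46 for Zhx1 and 0.35 for A2m. These are differences of log2(FPKM + 1). In FPKM, Zhx1 rose from 0.501 to 2.57 without RMC-6236 and from 1.52 to 7.24 with it, so its larger rise depends on the pseudocount. The calls of Zhx1, A2m and, among falling genes, Scx ended with a pseudocount of 0.1. Among falling genes the interaction was -1.37 for Gdf15, -1.22 for Ankrd1, -1.09 for Sox4, -1.05 for Ccn2, -1.04 for Fgd3, -0.99 for Acta2, -0.73 for Ctxn1, -0.6 for Plscr2, -0.53 for Scx, -0.42 for Thbs1, -0.34 for Ccn1 and -0.26 for Gxylt2. For Cldn6 it was -1.36, with opposite signs alone (0.32) and with RMC-6236 (-1.05). Ptger3 and F3, chosen after their values were seen, had interactions of 2.8 and -1.81. Wfdc18 and Acta2 each reached 1 FPKM in a single arm, the one in which they were high. Osr2, Ldhb, Itln1, A2m, Serpina3m and Serpina3g reached it only in the arms given tazemetostat.

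Single tumours stood apart from the other 3 of their arm, by the gap to the nearest value over the range, in 4 of 20 sets examined. For a single set, chance gives about 1 in 20. The sets are genes in the same tumours, taken as FPKM and not on the log scale of the fit, so that rate does not apply to their count. The values that stood apart were that of 7.44 FPKM for Serpina3n among RMC-6236 tumours and the combination values of 115 for Serpina3n, 93.6 for Lrg1 and 296 for Hp.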

How the results depend on the processing

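Of 164 KPC gene changes recomputed, none changed direction with a call, and all but those of Cdh1 and Suz12 kept their side of the threshold under every alternative run. With a pseudocount of 0.1, 292 genes rose and 75 fell by 2-fold or more, against 145 and 24, since that setting widens the change of genes with low levels. The same setting ended the interaction calls of Zhx1 (0.032), Scx (-0.392) and A2m (0.589), and without RMC-6236 replicate 1 that of Ezh2 passed (-0.203). Calls that were higher made up 41.6% of KPC calls, and 45.9% with median ratio scaling. In tumours 1352 genes were higher with no filter, and 223 were lower with only the compared arms in the fit and 227 without RMC-6236 replicate 4. Leaving out each library gave 2265 to 2329 higher and 3006 to 3300 lower genes in KPC cells, with 142 to 150 and 23 to 26 at 2-fold or more. For the interaction it gave 1303 to 1407 and 1457 to 1694, for tazemetostat alone 2076 to 2260 and 2712 to 2903, for tumours 513 to 693 and 227 to 451, for PSN1 cells 2947 to 3059 and 3661 to 3801, and for SW1990 cells 3264 to 3975 and 1973 to 3054. Replicates with the same number did not deviate together (correlations 0.08, -0.04 and 0.07), so the numbers were not taken as pairs. With the number as a replicate block, 2546 genes were higher and 3565 lower, and no recomputed gene call changed.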
